A study of Mus musculus with 4 samples.

Results

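Potassium channel genes were taken as all mouse genes whose symbol begins with Kcn, followed by letters and a number, and that had at least 100 unique molecular identifiers (UMIs, counted RNA molecules) in the deposited matrix. Of 98 such symbols, 76 reached that number and 22 did not. The genes just inside were Kcnj1, Kcnt2 and Kcnh6, and the genes just outside were Kcng3, Kcnj4 and Kcnk4. The 76 genes comprised 33 voltage-gated subunits, 10 inward rectifiers, 10 2-pore-domain subunits, 8 calcium- or sodium-activated subunits, 11 auxiliary subunits and 4 non-coding RNAs that carry a channel symbol. Channel levels were compared between the hormone cell classes of the pituitary, and between these and the support cells.

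The cells came from pituitaries of mice that were 4 weeks old at the start and received a high-fat diet (HFD) or a normal diet (ND) for 12 weeks. Each diet had 2 libraries made with 10x Genomics chemistry from 3 pooled pituitaries. No label gives strain or sex. The labels of all 4 libraries also name Lbt2 as a cell line and gonadotroph as a cell type, but the matrix held all hormone and support classes described here. Barcodes ended in a number from 1 to 4 that no source ties to a library, so the diets were not compared and the matrix was treated as 1 sample. The 4 barcode sets are neither replicates nor groups, no test or p-value is given, and values are shown pooled and set by set.

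Potassium channels let potassium leave the cell and so hold or restore a negative membrane voltage. Pituitary endocrine cells are excitable, and their potassium currents shape the action potentials that drive calcium entry and hormone release. 2-pore-domain channels carry background currents, inward rectifiers pass current best near the resting voltage, voltage-gated channels open on depolarization, and calcium-activated channels follow calcium entry. Auxiliary subunits change how these pores gate or reach the membrane.

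After filters and removal of doublets 36491 cells remained, of which 30545 received a class without use of any Kcn gene. Hormone classes were set by the share of a cell's UMIs in hormone genes. They held 15027 somatotrophs (Gh), 7348 lactotrophs (Prl), 1737 lower-Pomc cells, 583 higher-Pomc cells, 677 gonadotrophs (Fshb or Lhb with Cga) and 367 thyrotrophs (Tshb with Cga). Support classes were set by marker genes and held 1396 stem or folliculostellate cells, 933 endothelial cells, 362 fibroblasts, 167 pituicytes, 1496 macrophages, 346 T or NK cells and 106 B cells. For somatotrophs and gonadotrophs a receptor gene outside the hormone cuts followed the name. Ghrhr, the receptor for growth hormone-releasing hormone, was at 249.5 CPM in somatotrophs and at most 15.97 CPM in the other hormone classes. Gnrhr, the gonadotropin-releasing hormone receptor, was at 1184 CPM in gonadotrophs and at most 6.38 CPM in the others. Other markers of these classes, and those of the remaining hormone classes, are not given here. CPM is a gene's UMIs per 1000000 UMIs of a class after the 7 hormone genes had been taken out. Sets held between 81621358 and 92665029 UMIs. The median of non-hormone UMIs per cell ranged from 1439 in B cells to 13168 in gonadotrophs. B cells were too shallow in every set for any call, and pituicytes could be used in 3 sets because set 2 held 6 of them.

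A gene was said to lead a class when its level there was highest in every usable set, rested on at least 20 UMIs and was at least 2-fold that of the next class in the pooled counts. The support list also asked for a level above every hormone class in every usable set. For called genes, a higher level in each set is thus part of the call and no further support for it. Among the 6 hormone classes, 18 of the 76 channel genes led 1 class, or 23.7%, beside 9.37% of the 19481 genes measured to the same depth limit. Over the 62 channel genes with enough UMIs in their top class, the median lead over the next hormone class was 1.81-fold, beside 1.19-fold over all genes. The channel genes were not matched to all genes by UMI number. In somatotrophs 36 of the 76 channel genes and 13849 of the 19481 genes had at least 200 UMIs. Across hormone and support classes together 25 channel genes led 1 class (32.9%), beside 15.6% of all genes. In a support class, 21 channel genes (27.6%) were at least 2-fold above every hormone class, beside 19.7% of all genes. Kcnj8 and Kcnq1 belonged to both the hormone and the support list under these limits, 16 genes were in the hormone list alone, 19 in the support list alone, and 39 in neither. This split was not counted over all genes, so it is not read as a trait of channel genes. Levels are compared here between classes for 1 gene at a time and not between genes.

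**Figure D1:**
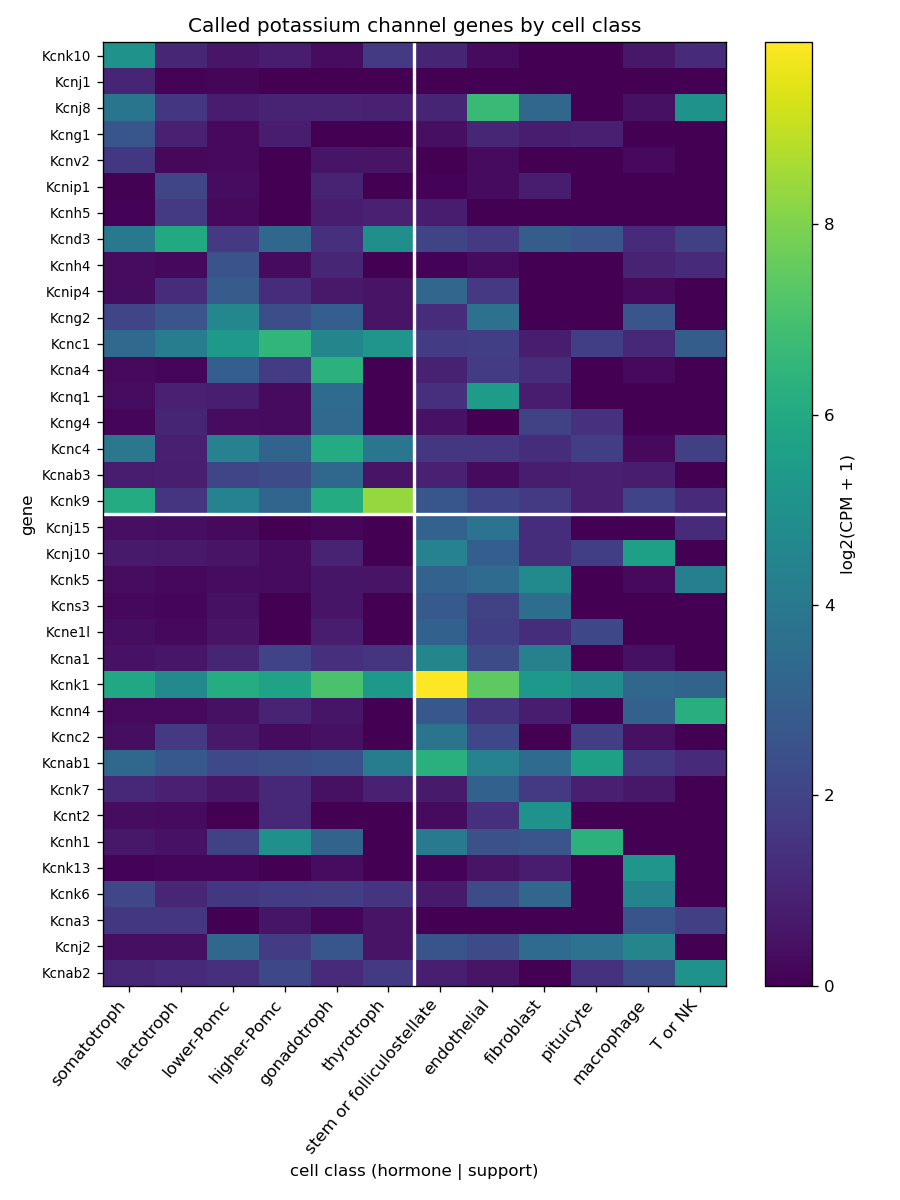
Level of 36 channel genes called in a hormone or support class, as log2(CPM + 1), in 12 cell classes (rows are genes, columns are classes, white lines part hormone from support classes and the 2 lists). The upper rows peak left of the vertical line except Kcnj8, Kcnq1 and Kcnip4, and Kcnk1 in stem or folliculostellate cells, at 960.5 CPM, is the brightest cell.

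In somatotrophs 5 channel genes led (6.58%, beside 1.78% of all genes that led this class). Kcnk10 encodes a 2-pore-domain channel that responds to membrane stretch and fatty acids. It was at 19.8, 23.5, 61.8 and 24.4 CPM in somatotrophs of sets 1 to 4, and at 0 to 5.03 CPM in thyrotrophs, the next hormone class. The pooled levels were 32.6 and 2.22 CPM, a 14.7-fold difference with a 95% counting interval of 6.29 to 45.3. Set 3 stood above the other sets, and without it the somatotroph level was 22.6 CPM and the log2 fold 3.81, against 3.88 with it. A Kcnk10 UMI was found in 7.33% of somatotrophs of set 1, 10.2% of set 2, 18.5% of set 3 and 9.72% of set 4, at median non-hormone depths between 5135 and 5934 UMIs. With every cell thinned to 2000 non-hormone UMIs, 5.05% of somatotrophs and 0 of the 173 T or NK cells deep enough had a Kcnk10 UMI, where the upper bound for T or NK cells was 2.11%.

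The Kcnk10 start lies on the minus strand of chromosome 12. The first of the 2 start windows that RefSeq lists (GRCm38.p6, chr12:98578164-98578463) is printed because Kcnk10 had the largest lead of the 18 genes by pooled fold. In this and the other windows shown, 6 motifs were searched on both strands: ATGNATA of the pituitary factor POU1F1, CAAGGTCA of SF-1, TCACACC of T-box factors, AGATAA of GATA factors, CATCTG of E-box factors and the cyclic AMP response element TGACGTCA. None of them occurred in either Kcnk10 window.

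Kcnk10: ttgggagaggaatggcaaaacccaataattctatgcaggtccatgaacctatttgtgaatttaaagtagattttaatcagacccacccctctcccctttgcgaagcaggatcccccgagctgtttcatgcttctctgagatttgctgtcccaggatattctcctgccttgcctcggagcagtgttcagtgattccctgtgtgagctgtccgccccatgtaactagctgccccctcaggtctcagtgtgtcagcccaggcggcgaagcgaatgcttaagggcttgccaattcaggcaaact

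Kcnj8 and Kcnj1 were the inward rectifiers that led somatotrophs. Kcnj8, a pore subunit of ATP-sensitive potassium channels, was at 14.9, 11.0, 11.8 and 15.6 CPM in somatotrophs of sets 1 to 4 and at 0.933 to 2.97 CPM in lactotrophs. The pooled difference was 6.72-fold (5.37 to 8.52). In the 13822 somatotrophs without a UMI of the endothelial or mural marker lists Kcnj8 was at 13.1 CPM, beside 13.3 CPM in all. Kcnj11, the related pore subunit best known from pancreatic beta cells, was at 11.7 CPM in somatotrophs, 7.99 CPM in thyrotrophs and at most 2.54 CPM in the other hormone classes. Abcc8, the sulfonylurea receptor that pairs with Kcnj11 and lies beside it on chromosome 7, was at 21.1, 14.6 and at most 5.86 CPM in the same classes. Kcnj1, a rectifier known from kidney, had only 91 UMIs in somatotrophs (1.05 CPM) and its next class had 1 UMI, so that its fold of 12.1 had an interval of 2.11 to 481.

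Kcng1 and Kcnv2 encode voltage-gated subunits that form no channel alone and modify others. Kcng1 was at 5.84, 5.61, 5.42 and 4.04 CPM in somatotrophs of sets 1 to 4 against 0.556 to 1.45 CPM in lactotrophs, and the pooled lead was 5.86-fold (4.18 to 8.43). Kcnv2 was at 2.06 CPM in somatotrophs, 4.30-fold above gonadotrophs (1.65 to 15.97). In set 1 Kcnv2 was nearly level, with 2.52 CPM in somatotrophs and 2.44 CPM in gonadotrophs. Just below the 2-fold limit stood Kcnmb4, the neuronal accessory subunit of the large-conductance calcium-activated channel. It was at 149, 126, 108 and 128 CPM in somatotrophs, 1.93-fold above gonadotrophs (1.77 to 2.10), and at 4.10 to 9.18 CPM in lower-Pomc cells. The pore gene Kcnma1 had its top level in gonadotrophs, at 140.0 CPM, with somatotrophs at 119.2 CPM. Its accessory subunit Kcnmb2 ran from 96.4 CPM in somatotrophs and 84.9 CPM in lower-Pomc cells to 5.39 CPM in gonadotrophs.

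In lactotrophs 3 channel genes led (3.95%, beside 1.47% of all genes). Kcnd3 encodes an A-type voltage-gated channel, which opens and inactivates at voltages below the action potential threshold. Its levels in lactotrophs were 70.3, 65.0, 63.5 and 59.6 CPM in sets 1 to 4, and 36.6, 23.7, 32.7 and 31.4 CPM in thyrotrophs. The pooled fold was 2.18 (1.71 to 2.81), and without set 2 the log2 fold fell under the limit, to 0.93. With all UMIs as library size, hormone genes included, it was 0.87. Kcnip1, a calcium-binding subunit of such A-type channels, was at 2.28 to 4.56 CPM in lactotrophs over the sets and 3.23 CPM pooled, 3.37-fold above gonadotrophs (1.66 to 7.97). Kcnh5, an ether-a-go-go channel, was at 2.24 CPM in lactotrophs. Its fold of 2.53 rested on 2 UMIs in thyrotrophs and had an interval of 0.680 to 21.2. Kcnh8, of the related ELK group, was at 134 to 178 CPM in lactotrophs and at 82.3 to 97.7 CPM in somatotrophs, a lead of 1.84-fold (1.78 to 1.90) in every set but under the limit.

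In gonadotrophs 5 channel genes led (6.58%, beside 2.32% of all genes), and 4 of them were voltage-gated pore or modifier subunits. Kcna4 encodes an A-type channel of the Shaker group. It was at 61.0, 85.8, 70.7 and 90.2 CPM in gonadotrophs of sets 1 to 4 and at 5.25 to 8.42 CPM in lower-Pomc cells. No other hormone class reached 3 CPM, thyrotrophs had no UMI, and the pooled lead was 12.2-fold (9.60 to 15.6). At 2000 UMIs per cell 14.5% of gonadotrophs had a Kcna4 UMI (11.7 to 17.6), beside 49.8% unthinned and 0 of 173 T or NK cells.

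The RefSeq start window of Kcna4 lies on the plus strand (GRCm38.p6, chr2:107290339-107290638), and is printed because Kcna4 separated gonadotrophs from all other hormone classes. The capitals mark the E-box letters CATCTG, the only match among the 6 motifs. The same letters occur in 17.2% of the 32851 RefSeq start windows and in the windows of 9 of the 54 channel genes that have one. The first value counts single windows. The second counts genes with a match in any of their windows, so they are not like measures. The SF-1 letters CAAGGTCA were in 1.56% of all windows and in 0 of the 54.

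Kcna4: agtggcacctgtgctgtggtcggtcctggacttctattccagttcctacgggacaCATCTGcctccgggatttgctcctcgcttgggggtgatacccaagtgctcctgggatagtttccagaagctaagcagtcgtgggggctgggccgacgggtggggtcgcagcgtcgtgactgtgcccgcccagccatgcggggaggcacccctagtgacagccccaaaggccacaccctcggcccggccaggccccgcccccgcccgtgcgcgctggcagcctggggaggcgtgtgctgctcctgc

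Kcnc4, a fast voltage-gated channel of the Shaw group, was at 69.5, 65.8, 78.9 and 63.1 CPM in gonadotrophs and at 17.1 to 21.8 CPM in lower-Pomc cells. Its pooled lead was 3.41-fold (2.92 to 4.00), and lactotrophs had the lowest level, 0.820 CPM. Kcnq1, the pore of a slow voltage-gated current of heart and epithelia, was at 8.37 to 14.9 CPM in gonadotrophs, with a pooled lead of 11.4-fold (7.67 to 17.3) over lactotrophs. Kcng4, a silent modifier subunit, was at 4.88 to 14.9 CPM, 9.46-fold above lactotrophs (6.44 to 14.1). Kcnab3, a cytoplasmic beta subunit, was at 8.98 CPM, 2.27-fold above higher-Pomc cells (1.33 to 4.10), and without set 3 it no longer passed. With classes taken from clusters made without Kcn and hormone genes, the log2 folds of Kcng4 and Kcnab3 were 0.87 and 0.45, under the limit. Kcnn3, a small-conductance calcium-activated channel, was at 44.3 CPM in gonadotrophs and missed the limit at 1.98-fold (1.68 to 2.33). Gonadotrophs were the deepest class per cell, by median non-hormone UMIs, but not by class sum. Their sum of 8347728 non-hormone UMIs was below those of somatotrophs (86317647), lactotrophs (41477586) and lower-Pomc cells (11436347). It was above those of higher-Pomc cells (4299159) and thyrotrophs (2254099). With the sums of all classes thinned to a common depth, 13 channel genes led a hormone class in all.

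Thyrotrophs were led by 1 channel gene (1.32%, beside 1.2% of all genes, a share near the background). Kcnk9 encodes an acid-sensitive 2-pore-domain background channel and was at 302, 265, 418 and 375 CPM in thyrotrophs of sets 1 to 4. Gonadotrophs were at 75.6, 71.2, 64.0 and 61.6 CPM and somatotrophs at 67.0 CPM pooled, so that these neighbours lay close together while thyrotrophs stood 4.68-fold (4.18 to 5.23) above them. Lactotrophs were at 1.90 CPM. The sister gene Kcnk3, whose product can form mixed channels with that of Kcnk9, was at 249, 251, 181 and 262 CPM in thyrotrophs and at 115, 117, 132 and 137 CPM in gonadotrophs. This lead of 1.94-fold (1.75 to 2.16) held in every set but was under the limit, and lactotrophs were again lowest, at 1.23 CPM. Without set 1, or without set 3, the genes that led thyrotrophs numbered 2. Kcnk2, a mechanically gated relative of Kcnk10, had another order, with 374 CPM in somatotrophs, 357 CPM in lower-Pomc cells, 304 CPM in thyrotrophs, 123 CPM in higher-Pomc cells, 109 CPM in lactotrophs and 70.2 CPM in gonadotrophs. Over the sets its somatotroph values, 341 to 416 CPM, overlapped those of lower-Pomc cells, 345 to 375 CPM.

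**Figure D2:**
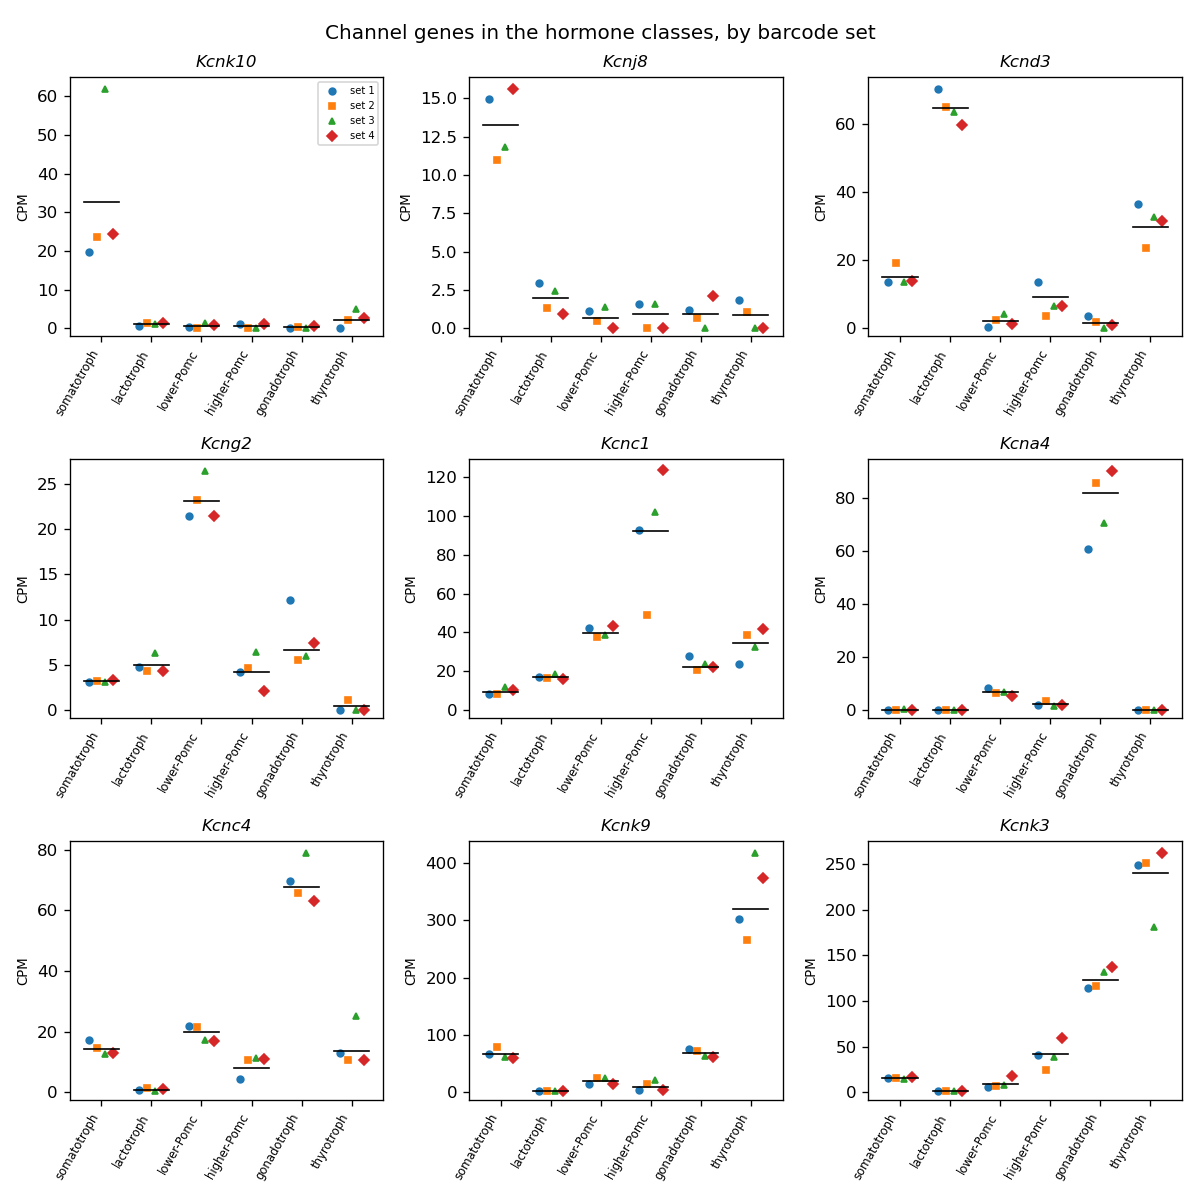
CPM of 9 channel genes in the 6 hormone classes, each marker 1 of 4 barcode sets and each line the pooled level. Kcnk10 in set 3 stands at 61.8 CPM above the other somatotroph values, Kcna4 is above 60 CPM only in gonadotrophs, and Kcnk9 is at 265 CPM or more only in thyrotrophs.

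Pomc cells include corticotrophs and the melanotrophs of the intermediate lobe. Here 3 channel genes led the lower-Pomc class (3.95%, beside 1.49% of all genes). The higher-Pomc class was led by 1 (1.32%, beside 1.12% of all genes, a share near the background). Kcng2, a silent modifier, was at 21.4, 23.3, 26.4 and 21.4 CPM in lower-Pomc cells and at 5.58 to 12.2 CPM in gonadotrophs, a pooled lead of 3.44-fold (2.57 to 4.68). Kcnip4, a subunit of A-type channels, was at 6.21 CPM, 4.36-fold above lactotrophs (3.05 to 6.27), and Kcnh4 at 4.72 CPM, 4.38-fold above gonadotrophs (2.14 to 10.1). Kcnc1, a fast-deactivating channel known from rapidly firing neurons, was at 92.9, 49.1, 102 and 123 CPM in higher-Pomc cells and at 37.5 to 43.3 CPM in lower-Pomc cells. Among the higher-Pomc values set 2 was lowest, and the pooled lead was 2.31-fold (2.01 to 2.64). With all UMIs as library size its log2 fold was 0.89 and no channel gene led the higher-Pomc class.

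The share of Pomc did not part melanotrophs cleanly. Of the higher-Pomc cells 66.7% carried the melanotroph markers Pcsk2, Pax7 or Oacyl at 2 or more UMIs per 10000, and 31.7% were classed as other Pomc cells by the same markers. Split by these markers alone, 751 melanotroph-marker cells stood against 2094 other Pomc cells. By this split 14 channel genes were at least 2-fold higher in melanotroph-marker cells in the pooled counts and higher there in every set (18.4%, beside 7.76% of all genes), and 12 met the same limits in the other cells (15.8%, beside 5.76%).

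Higher in melanotroph-marker cells was Kcnh1, an ether-a-go-go channel, at 44.9, 24.4, 43.1 and 54.6 CPM in sets 1 to 4 against 0.382 to 1.56 CPM, a 49.9-fold difference (28.1 to 98.0). Kcnk3 was at 51.0 to 88.3 CPM against 2.50 to 7.63 CPM, or 17.4-fold higher (12.9 to 23.8). Kcnd3 was 12.1-fold higher (6.73 to 23.3), Kcnmb4 6.98-fold (5.55 to 8.83) and Kcnc1 3.84-fold (3.41 to 4.34). For Kcnc1 the sets lay at 113, 114, 146 and 144 CPM in melanotroph-marker cells and at 31.7 to 34.7 CPM in the others, so that set 2 did not stand apart here.

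Lower in melanotroph-marker cells was Kcnk2, at 26.7, 72.2, 23.9 and 59.99 CPM against 354 to 387 CPM, which makes the other Pomc cells 8.43-fold higher. The inward rectifier Kcnj2 was 10.45-fold, Kcnip4 10.6-fold, Kcnc4 10.2-fold and Kcng2 7.56-fold higher in the other Pomc cells. Being higher in every set was part of the limit by which these 5 genes were chosen. In melanotroph-marker cells Kcnj2 had 5 UMIs, Kcnip4 3, Kcnc4 12 and Kcng2 16, so that these folds rest on few counts.

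The RefSeq start window of Kcnc1 (GRCm38.p6, chr7:46396218-46396517, plus strand) is printed because Kcnc1 alone led the higher-Pomc class. The capitals mark the T-box letters, here read as GGTGTGA on the opposite strand. Tbx19, the T-box factor of Pomc cells, recognizes T-box elements, but a match is a description of letters only. They occur in 3.98% of all windows and in those of 4 of 54 channel genes, counted by window and by gene as for the E-box letters.

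Kcnc1: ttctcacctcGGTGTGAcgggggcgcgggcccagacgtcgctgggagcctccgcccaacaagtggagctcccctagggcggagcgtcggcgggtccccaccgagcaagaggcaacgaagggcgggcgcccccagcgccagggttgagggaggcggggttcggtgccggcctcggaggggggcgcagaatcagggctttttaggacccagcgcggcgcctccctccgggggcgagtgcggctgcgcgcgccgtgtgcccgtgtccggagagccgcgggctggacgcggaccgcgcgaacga

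**Figure D3:**
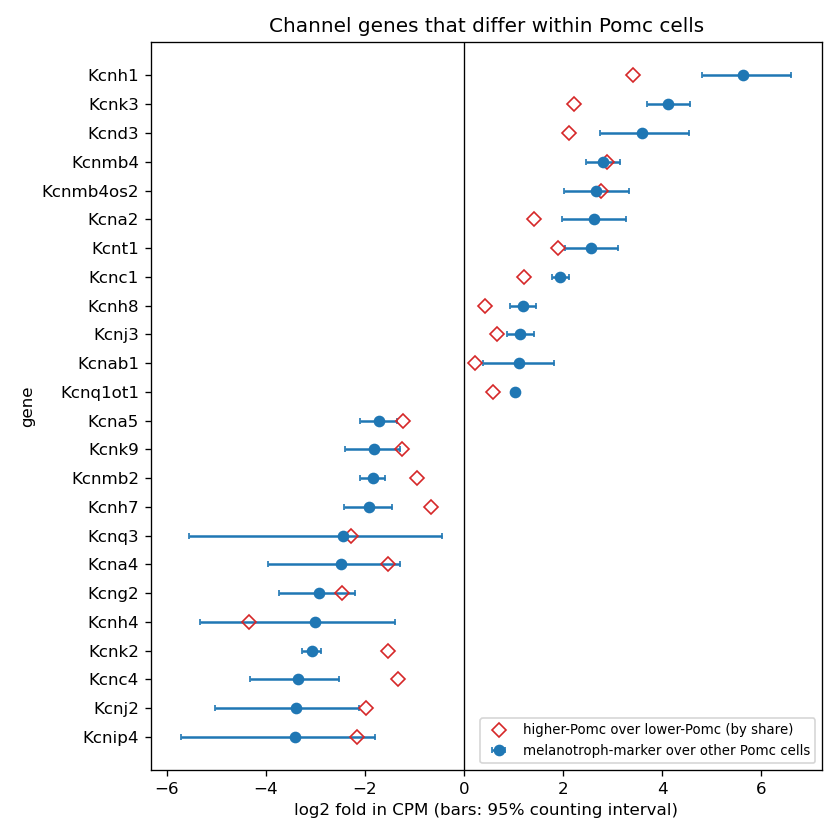
Log2 ratio of CPM for 24 channel genes that differed within Pomc cells, with 95% counting intervals for melanotroph-marker cells over other Pomc cells (filled) and the same ratio for higher-Pomc over lower-Pomc cells (open). Every gene shown lies on the same side of 0 by both splits, and Kcnh1 is farthest right at a fold of 49.9.

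Of the support classes, stem or folliculostellate cells had 11 channel genes above every hormone class (14.5%, beside 5.88% of all genes). Kcnk1, a weakly conducting 2-pore-domain channel, was at 949, 896, 1078 and 935 CPM in these cells. Gonadotrophs, the next hormone class, were at 120 to 182 CPM, and the pooled difference was 7.15-fold (6.72 to 7.60). At 2000 UMIs per cell 78.5% of stem or folliculostellate cells, 23.5% of gonadotrophs and 2.31% of T or NK cells had a Kcnk1 UMI. The unthinned shares were 91.9%, 63.7% and 1.45%. Endothelial cells were second at 173 CPM, but there the 7 markers of stem or folliculostellate cells summed to 1021 CPM, beside 4996 CPM in their own class. In the 675 endothelial cells without a UMI of that list Kcnk1 was at 4.02 CPM (1.84 to 7.63), and in the 258 with one at 330 CPM.

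The epithelial inward rectifier Kcnj15 was at 7.74 CPM in stem or folliculostellate cells, 23.8-fold above the highest hormone class, and Kcnj10, the rectifier that buffers potassium in glia, at 20.2 CPM and 21.0-fold. For Kcnj10 the 1243 of these cells without a macrophage marker UMI were at 20.3 CPM. The beta subunit Kcnab1 was at 67.9 to 86.2 CPM over the sets against 12.8 to 23.6 CPM in thyrotrophs, or 4.54-fold higher (3.28 to 6.45). Kcnk5, Kcns3, Kcne1l, Kcna1, Kcnn4 and Kcnc2 were also called, with folds between 5.88 and 15.8. Kcna1 was also at 18.9 CPM in fibroblasts. Its chromosomal neighbours on chromosome 6 had other orders: Kcna5 was at 40.1 CPM in somatotrophs and 18.5 CPM in stem or folliculostellate cells, and Kcna6 had its top level, 5.75 CPM, in gonadotrophs.

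Endothelial cells had 6 channel genes above every hormone class (7.89%, beside 7.88% of all genes, a share near the background). Kcnj8 was at 107, 96.2, 100.0 and 113 CPM in endothelial cells of sets 1 to 4, 7.76-fold (6.96 to 8.64) above somatotrophs. Abcc9, the sulfonylurea receptor that pairs with Kcnj8 in blood vessels and lies beside it on chromosome 6, was at 44.0 CPM in endothelial cells and 1.22 CPM in somatotrophs. All 7 markers of mural cells, which surround capillaries and are known for both genes, had UMIs in the endothelial class, and their summed level was 728 CPM there, 610 CPM in fibroblasts and at most 60.6 CPM in every other class. In the 471 endothelial cells without a UMI of this list Kcnj8 was at 102 CPM (86.0 to 119), and in the 462 with one at 104 CPM. For Abcc9 the same cells gave 29.8 and 50.6 CPM.

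Kcnq1 was at 43.8, 43.2, 33.3 and 50.5 CPM in endothelial cells, 4.15-fold (3.20 to 5.42) above gonadotrophs. Kcnj15 was at 12.5 CPM, 38.6-fold above somatotrophs (24.2 to 62.9), and Kcnk5 at 10.1 CPM, 21.2-fold above gonadotrophs (7.74 to 80.9). Kcnk7 was at 7.55 CPM. Kcnj10 was at 6.69 CPM in all endothelial cells, 5.13 CPM in those without and 10.6 CPM in those with a macrophage marker UMI, and the macrophage list summed to 270 CPM in this class. In the 675 endothelial cells without a stem or folliculostellate marker UMI it was at 0.446 CPM, on 1 UMI, and was no longer above the hormone classes. The same 675 cells held Kcnj15 at 9.82 CPM, Kcnk5 at 10.3 CPM and Kcnq1 at 51.8 CPM. These cells were looked at after the class levels had been seen.

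In fibroblasts 2 channel genes were above every hormone class (2.63%, beside 5.35% of all genes, so a share below the background). Kcnt2, a sodium-activated channel, was at 29.7, 40.1, 24.1 and 40.8 CPM in fibroblasts and at 0 to 2.17 CPM in higher-Pomc cells, a 28.1-fold difference (11.2 to 90.8) on 45 fibroblast UMIs. Kcnk5 was at 24.7 CPM, on 34 UMIs. In pituicytes, the glia of the posterior lobe, also 2 genes passed (2.63%, beside 4.02% of all genes, again below the background). Kcnh1 was at 96.3, 66.0 and 73.6 CPM in the 3 usable sets and at 2.34 to 39.6 CPM in higher-Pomc cells, 2.71-fold higher (2.06 to 3.56). When Pomc cells were split by markers the log2 fold was 0.89 and no longer passed. Kcnab1 was at 48.3 CPM in pituicytes, 2.86-fold above thyrotrophs.

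In macrophages 6 channel genes passed (7.89%, beside 6.68% of all genes, a share near the background). Kcnk13, the 2-pore-domain channel that sets the resting voltage of microglia, was at 38.2, 36.6, 30.1 and 34.8 CPM. Every hormone class was below 0.3 CPM, and the 146-fold difference from gonadotrophs (39.8 to 1214) rested on 2 gonadotroph UMIs. Kcnj10 was at 45.0 to 49.4 CPM, 50.5-fold above gonadotrophs (25.2 to 118) and 2.40-fold above stem or folliculostellate cells. Its neighbour Kcnj9 on chromosome 1 was at 25.5 CPM in macrophages and, unlike Kcnj10, at 14.8 CPM in lower-Pomc cells. Kcnk6 was at 20.8 CPM (6.21-fold), Kcnj2 at 21.9 CPM (2.39-fold over lower-Pomc cells), Kcna3 at 4.91 CPM (2.42-fold over somatotrophs) and Kcnn4 at 7.18 CPM (7.72-fold).

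T or NK cells, the shallowest class that could be used, had 3 channel genes above every hormone class. This share (3.95%, beside 4.90% of all genes) was not above the background. Kcnn4, the intermediate-conductance calcium-activated channel of activated lymphocytes, was at 69.8, 90.0, 58.1 and 73.4 CPM, on 56 UMIs, and 79.2-fold above higher-Pomc cells (29.2 to 301). Kcnab2 was at 32.9 CPM, on 25 UMIs, and fell under 20 UMIs when set 2 or set 4 was left out. Kcnj8 was also at 32.9 CPM on 25 UMIs, 2.47-fold above somatotrophs (1.60 to 3.67), and did not pass without set 2 or without set 3. In the 322 T or NK cells without an endothelial or mural marker UMI it was at 34.5 CPM, and Abcc9 had no UMI in the class.

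**Figure D4:**
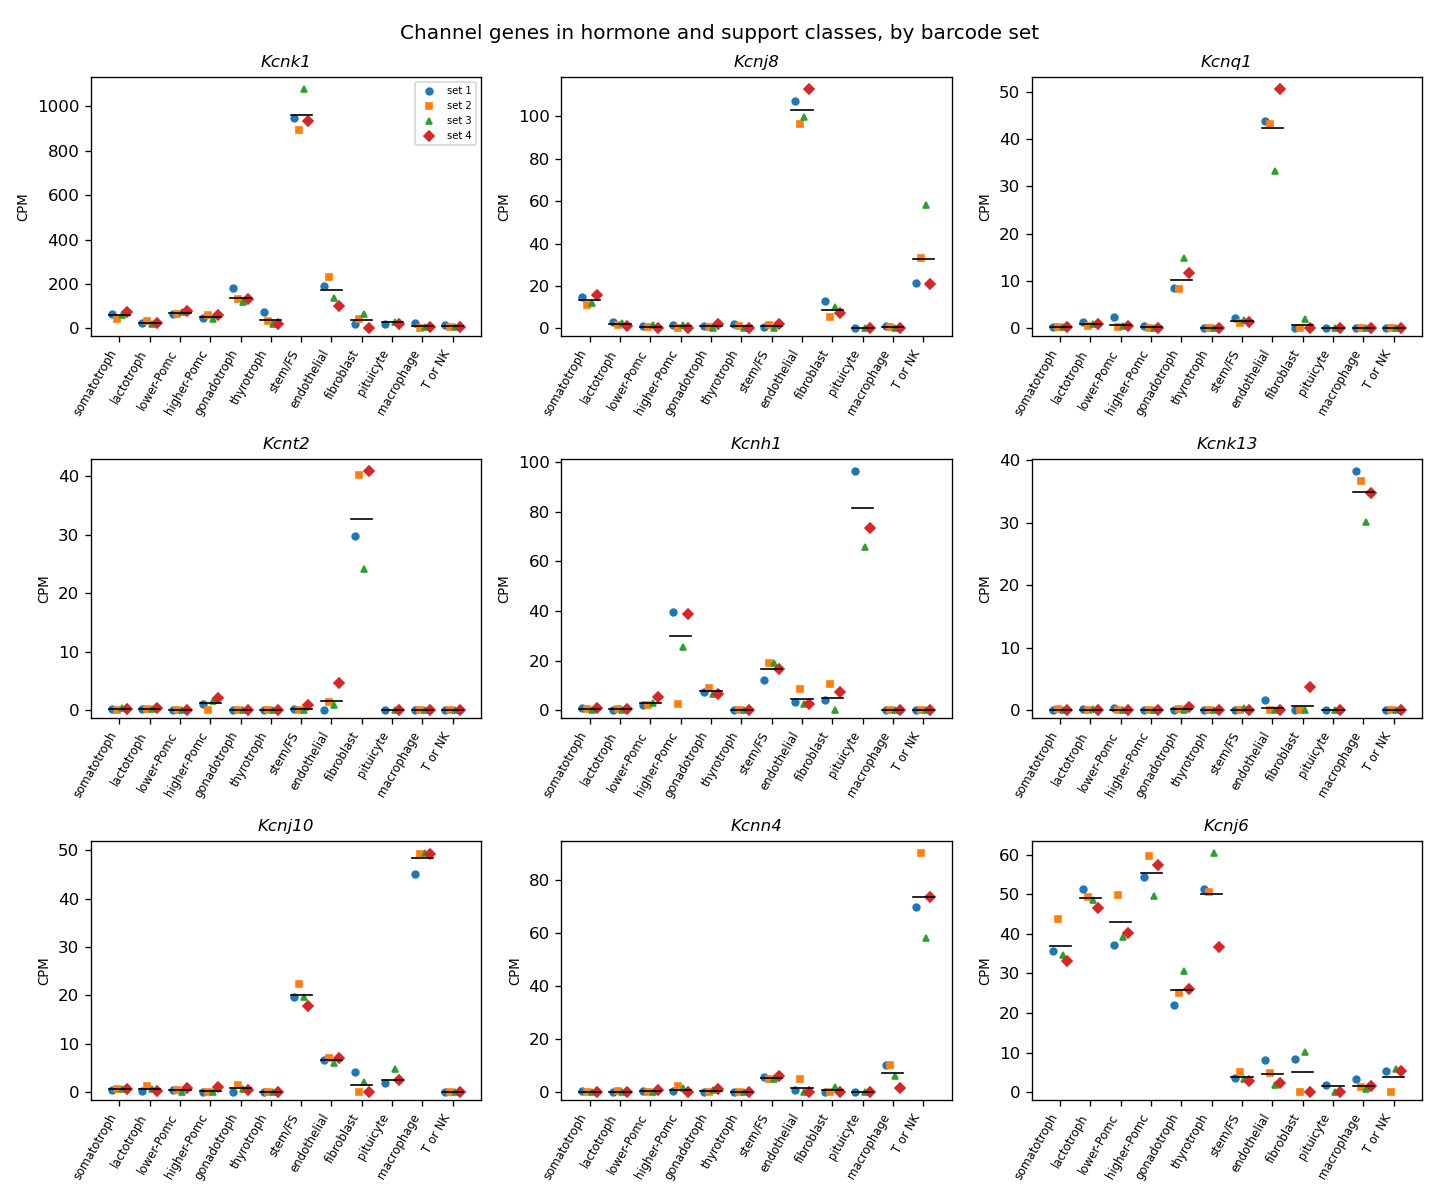
CPM of 9 channel genes in 6 hormone and 6 support classes, each marker 1 barcode set and each line the pooled level (stem/FS is stem or folliculostellate). Kcnk13 and Kcnn4 stand near 0 in all hormone classes, Kcnk1 reaches 1078 CPM in stem or folliculostellate cells, and Kcnj6 is higher in each hormone class than in each support class.

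In the opposite direction, 3 of 76 genes (3.95%, beside 1.37% of all genes) were at least 2-fold higher in each of the 6 hormone classes than in each support class that could be used, Kcnj6 and Kcnd2 among them. This limit was chosen after levels had been seen. Kcnj6, a G protein-gated inward rectifier, was lowest in gonadotrophs, at 25.9 CPM, and reached 5.09 CPM in fibroblasts, the highest support class. Kcnd2, an A-type channel, ran from 15.6 CPM in lower-Pomc cells to 145.5 CPM in gonadotrophs and was at most 4.14 CPM in support cells.

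By family, and beside the 9.37% of all genes that led a hormone class and the 19.7% in the support list, 11 of the 33 voltage-gated subunits led a hormone class and 7 were above all hormone classes in a support class, with Kcnq1 in both. Of the 10 2-pore-domain genes 2 led a hormone class and 5 were in the support list. The 10 inward rectifiers gave 2 and 4, with Kcnj8 in both (and 4 in the hormone list without set 1), and the 11 auxiliary subunits gave 3 and 3. None of the 8 calcium- or sodium-activated subunits led a hormone class (1 did without set 1 or without set 2, and the share over all genes gives fewer than 1), and 2 of them, Kcnn4 and Kcnt2, were in the support list. None of the 4 non-coding RNAs was in either list, although 1 led a hormone class without set 2. The deposited counts do not state a strand setting. Whether RNA of overlapping partners was kept apart was not tested. Such partners are Kcnq1 and Kcnq1ot1, Kcnd3 and Kcnd3os, Kcnmb4 and Kcnmb4os1, and Kcnip1 and Kcnmb1. Kcnq1ot1, the long RNA that lies across Kcnq1 in the opposite direction, was at 325 to 649 CPM in hormone classes and at 180 CPM in endothelial cells, where Kcnq1 was highest. Fibroblasts had Kcnq1ot1 at 427 CPM and macrophages at 105 to 121 CPM over the sets. A Kcnq1 UMI was in 0.276% and 0% of these cells, and a relation between the 2 genes was not tested. Kcnmb4os2 had its top level in somatotrophs, at 42.4 CPM, as did Kcnmb4.

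A list of 29 partner genes (accessory subunits, G proteins, calmodulins, anchors and related channels) held 6 genes that led 1 hormone class (20.7%, beside 9.37% of all genes) and 6 that led 1 of all classes (20.7%, beside 15.6%). Dpp10, an accessory subunit of A-type channels, was at 127 CPM in thyrotrophs, 5.59-fold above gonadotrophs (4.64 to 6.76). Lrrc52 and Lrrc38 belong to the group of accessory subunits that ease opening of large-conductance calcium-activated channels. Lrrc52 was at 7.24 CPM in somatotrophs, 2.72-fold above thyrotrophs (1.24 to 7.44), and Lrrc38 at 8.87 CPM in gonadotrophs, where the other hormone classes together had 4 UMIs. Lrrc55, of the same group, was at 9.92 CPM in endothelial cells. The scaffold Ank2 was at 285 CPM in lactotrophs, 2.17-fold above thyrotrophs, the next hormone class (1.93 to 2.44), while fibroblasts were at 291.5 CPM. Lrrc26 had 110 UMIs in somatotrophs, or 1.27 CPM.

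Between sets, the share of channel genes that moved depended on the class. In higher-Pomc and endothelial cells it was well above the share of all genes, though few channel genes were tested there. Among genes with at least 200 UMIs in a class, the highest set was at least 2 times the lowest for 1 of 36 channel genes in somatotrophs (3.37% of all genes), and that gene was Kcnk10. In lactotrophs it was 0 of 29 (1.83% of all genes), in lower-Pomc cells 0 of 21 (1.72%), in gonadotrophs 0 of 19 (2.48%), in thyrotrophs 0 of 6 (2.41%) and in macrophages 0 of 2 (3.28%). In higher-Pomc cells it was 3 of 10 (5.08%), which were Kcnk2, Kcnmb4 and Kcnc1. These also differed between melanotroph-marker and other Pomc cells, as did Kcnq1ot1, whose highest set was only 1.31 times its lowest. In stem or folliculostellate cells it was Kcna5, 1 of 14 (2.11%), and in endothelial cells Kcnk1 and Kcnk2, 2 of 5 (5.97%), of which Kcnk1 was at 4.02 CPM in endothelial cells without stem or folliculostellate marker UMIs. The causes of these differences between sets were not tested.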

How the data were processed

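UMI counts per gene and barcode were deposited for 4 libraries in a single matrix; per the file headers it was written by Cell Ranger 8.0.1, and Seurat is named without a version per the submitters' processing notes. The sources used here give no build, annotation or strand setting. The members and lists were chosen with earlier results of these data known.

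Barcodes with at least 500 UMIs, 250 genes and at most 25% mitochondrial UMIs were kept (39839 of 40406). Scrublet's automatic threshold marked 0.0199%, 9.28%, 7.30% and 0% of the cells of sets 1 to 4. The highest-scoring 8% of each set, ties included, were therefore removed, a choice made after seeing this (3348 cells). Sets shared 20 to 30 barcode sequences per pair.

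Hormone classes needed, as percent of a cell's UMIs, Gh of 15, Prl of 5, Pomc of 1.5 to 8 (lower-Pomc) or 15 (higher-Pomc), Fshb plus Lhb of 0.2 with Cga of 0.5, or Tshb of 0.2 with Cga of 0.5, and only 1 of these. Within 20% of the Gh cut lay 1078 cells. Support cells passed none and had UMIs of at least 3 markers of the list with the highest share detected. In all, 387 cells passed several cuts and 4721 matched nothing. A list called neuron took 106 cells led by gonadotroph genes, which were left unnamed, and pericyte, neutrophil, proliferating and red blood lists took 12, 27, 26 and 16 cells, under the minimum of 50.

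Counts were summed per class and set. A set was usable for a class with 20 cells and 100000 non-hormone UMIs. Intervals are exact (Poisson for levels, conditional for folds, Clopper-Pearson for shares), at 95%, and cover counting error only. Genes were named by rule: all that led a hormone class (at most 5 a class), up to 4 per support class by fold, the 6 with most UMIs, and partners that led a class; others, such as those near the limit, were named after their values were seen. Results for a few of these genes are not reported here. Scripts were tested on simulated data. Python 3.11.15, numpy, scanpy and igraph were used.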

Additional observations from a re-analysis of the deposited data

How the results depend on the processing

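No paired analysis was possible because the barcode sets cannot be matched to libraries. Library size, doublet removal, cell filter, hormone cuts, clusters in place of cuts, the Pomc split, depth, free RNA, the fold, the UMI minimum and the sets used were each changed in turn. Over these settings the number of channel genes leading 1 hormone class was 13 (class sums thinned) to 27 (fold of 1.5), beside 18. Among all classes it was 17 to 37, beside 25, in the support list 17 to 22, beside 21, and among partners 5 to 6. With 1 set left out in turn these were 19 to 24, 24 to 30, 18 to 21 and 6. None of the 37 folds recomputed, those of the 18 hormone leads and of 19 support entries, changed direction in these settings. They were chosen as at least 2-fold in the same counts, so a reversal was unlikely. Over all settings 411 recomputed folds were labelled the same and 33 weaker, 13 of the latter with thinned sums. Of the 37 levels in CPM, 5 moved by over 1.5 times with library sizes of all UMIs, 2 with thinned sums and 1 with clusters, and none when 1 set was left out. Kcnd3 and Kcnc1 fell under the 2-fold limit with library sizes of all UMIs (log2 fold 0.87 and 0.89), Kcng4 with clusters made without Kcn and hormone genes (0.87), and Kcnab3 with 1.5 times higher hormone cuts (0.95), with clusters (0.45) and with the Pomc marker split (0.93). Kcnh1 in pituicytes fell to 0.71 with clusters. The causes were not tested. Depth limits Kcnj1, Kcng1, Kcnv2, Kcnip1, Kcnh5, Kcnh4, Kcnip4 and Kcnab3, which lost their call when class sums were thinned, and B cells and pituicytes, which are few.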

Other observations

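Cells past both the Gh and the Prl cut numbered 130 (25, 22, 35 and 48 in sets 1 to 4) after removal of doublets and were in no class. Their Kcnk2 level was 214 CPM (185 to 245), between 374 CPM in somatotrophs and 109 CPM in lactotrophs. Of the 18 channel genes with at least 20 UMIs in these cells, 16 lay between the levels of both classes, 1 (Kcnq1ot1, at 384 CPM) lay below both and 1 (Kcnip3, at 46.4 CPM) above both. The same count was not made over all genes, so it does not set channel genes apart. Whether the 130 cells are single cells or remaining doublets was not tested.

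The 12 cells of the mural marker list, too few for a class, had Kcnj8 at 416.5 CPM (247 to 658) on 18 UMIs and Abcc9 at 763.5 CPM (526 to 1072) on 33 UMIs. Both were above the endothelial levels of 103 and 44.0 CPM. These cells were looked at after the endothelial values had been seen.

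In set 3, where the somatotroph level of Kcnk10 was highest, 700 somatotrophs held its 1357 UMIs. The other sets had 399 UMIs in 262 cells (set 1), 532 in 374 (set 2) and 526 in 389 (set 4). The top 1% of somatotrophs by Kcnk10 UMIs held 36.1%, 27.3%, 25.2% and 25.9% of them in sets 1 to 4. This share also depends on how many cells have a UMI, so it does not compare the sets. Which libraries the sets stand for is not known, so the Kcnk10 values cannot be set against diet.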
